A study of Mus musculus with 45 samples.

Results

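The genes of cholesterol synthesis and of the SREBP2 pathway were followed in mouse liver during ethanol feeding and after its withdrawal. The set holds 29 genes chosen by name from a list of cholesterol genes: 8 enzymes of the mevalonate route, 11 sterol-forming enzymes, 4 genes of sterol sensing, 3 of uptake and transport, and 3 of export and esterification. All 29 were found among the 24946 usable genes of the deposited table, and all 29 reached the mean of 0.5 TPM required for testing, as 11244 genes did. Whole-liver lysates of wild-type mice on a Lieber-DeCarli liquid diet gave 45 bulk RNA-seq libraries, 16 at peak injury, 15 at early resolution and 14 at late resolution. Peak libraries came after 6 weeks of control or ethanol diet. In early resolution the ethanol diet of 6 weeks was followed by 3 days of control diet, and in late resolution by 2 weeks of control diet. Each stage had control-labelled and ethanol-labelled mice with a female or a male label. That made 9 groups of 4 libraries and 3 groups of 3, which were the female-labelled ethanol groups of both resolution stages and the male-labelled ethanol group of late resolution. The labels give no age or strain, and they do not say what else the control-labelled mice of the resolution stages received. They also do not state that the replicates are separate animals, and the p-values then reflect only how far these libraries spread.

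Values are TPM, transcript levels corrected for gene length and library size, which have the same sum in each library and hide the sequencing depth. A library held 15093 to 16402 genes above 0. Transcripts of the sex chromosomes followed the diet label and not the sex label. Xist, the RNA of the inactive X chromosome, was at 13.7 to 51.8 TPM in 22 libraries and at or below 0.349 TPM in the other 23. All 21 ethanol-labelled libraries were Xist-high, while 23 of 24 control-labelled libraries were high for the Y-linked Eif2s3y, the exception being late control female 1. In all, 22 of 45 libraries went against their sex label, so every group is named below as it was labelled, and a difference by diet label cannot be told apart from one by sex-chromosome content. Whether sex or diet labels were exchanged was not tested, and if they were, the differences by diet label and by sex label below would not be what their names say. The 6 hepatocyte markers summed to between 72860 and 204900 TPM, so every library held abundant hepatocyte transcripts.

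Cells make cholesterol from acetyl-CoA through the mevalonate route, which ends in farnesyl diphosphate, and then through squalene and a series of sterol intermediates. SREBP2, the product of Srebf2, is held in the endoplasmic reticulum by SCAP and the INSIG proteins when sterols are plentiful, and is released to switch on the synthesis genes when they are scarce. The liver also stores cholesterol as esters, made by the enzyme SOAT2, and sends it into bile through the paired transporter ABCG5 and ABCG8. Not every gene of the set is a SREBP2 target in the textbook sense: Abcg5, Abcg8 and Mylip are known as targets of the oxysterol receptor LXR.

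Promoter windows of 300 bases, from 250 before to 50 after the annotated start, were taken from RefSeq on build GRCm38.p6. They were found for 24 of the 29 genes and were missing for Fdps, Sqle, Fdft1, Soat2 and Stard4. The first 3 below belong to sterol enzymes that were higher in male-labelled livers at peak. Hmgcs1, an enzyme of the mevalonate route, holds the core of a sterol regulatory element. Insig1 is a sensing gene, and Abcg5 and Abcg8 are shown for the promoter they share. Capitals mark the letters CCAAT or ATTGG, the same motif on either strand and the one bound by the factor NF-Y, or the letters TCACNCCAC, the sterol element core, also searched on both strands; in these windows the matches do not overlap.
Nsdhl, chrX:72918271-72918570, plus strand: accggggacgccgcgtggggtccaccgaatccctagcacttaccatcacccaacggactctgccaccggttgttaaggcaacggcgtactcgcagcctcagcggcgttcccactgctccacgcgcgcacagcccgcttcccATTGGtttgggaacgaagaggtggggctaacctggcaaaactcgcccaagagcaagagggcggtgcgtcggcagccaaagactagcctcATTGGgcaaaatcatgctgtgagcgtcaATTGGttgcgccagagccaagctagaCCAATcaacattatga
Cyp51, chr5:4104648-4104947, minus strand: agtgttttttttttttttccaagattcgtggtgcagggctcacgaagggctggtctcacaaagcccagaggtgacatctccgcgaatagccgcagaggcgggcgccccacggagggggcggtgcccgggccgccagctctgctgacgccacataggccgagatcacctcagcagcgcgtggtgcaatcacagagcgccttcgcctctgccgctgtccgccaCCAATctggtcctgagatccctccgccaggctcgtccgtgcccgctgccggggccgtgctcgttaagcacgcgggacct
Dhcr7, chr7:143829964-143830263, plus strand: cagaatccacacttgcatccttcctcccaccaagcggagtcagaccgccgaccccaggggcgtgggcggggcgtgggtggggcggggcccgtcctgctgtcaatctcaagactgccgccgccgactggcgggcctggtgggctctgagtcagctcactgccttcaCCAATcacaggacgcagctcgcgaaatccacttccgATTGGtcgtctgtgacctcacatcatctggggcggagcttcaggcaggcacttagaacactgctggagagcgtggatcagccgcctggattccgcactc
Hmgcs1, chr13:119690101-119690400, plus strand: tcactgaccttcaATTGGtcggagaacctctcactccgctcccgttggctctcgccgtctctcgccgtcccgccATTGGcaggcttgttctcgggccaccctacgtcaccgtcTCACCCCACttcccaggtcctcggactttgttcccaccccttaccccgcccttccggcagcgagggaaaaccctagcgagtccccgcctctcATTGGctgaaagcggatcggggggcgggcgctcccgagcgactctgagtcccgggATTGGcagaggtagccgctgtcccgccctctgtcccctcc
Insig1, chr5:28071162-28071461, plus strand: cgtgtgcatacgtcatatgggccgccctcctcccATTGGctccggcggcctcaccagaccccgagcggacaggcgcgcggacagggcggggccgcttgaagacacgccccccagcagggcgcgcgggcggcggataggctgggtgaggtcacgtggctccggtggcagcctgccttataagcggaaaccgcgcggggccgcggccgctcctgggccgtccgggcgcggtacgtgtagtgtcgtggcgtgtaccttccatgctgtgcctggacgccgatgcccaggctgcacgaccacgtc
Abcg5, chr17:84682962-84683261, minus strand: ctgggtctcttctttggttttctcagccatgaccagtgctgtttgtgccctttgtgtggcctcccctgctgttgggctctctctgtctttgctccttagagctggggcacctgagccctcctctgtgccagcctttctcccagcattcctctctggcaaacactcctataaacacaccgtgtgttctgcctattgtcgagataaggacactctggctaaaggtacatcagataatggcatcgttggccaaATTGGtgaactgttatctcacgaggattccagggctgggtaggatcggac
Abcg8, chr17:84682871-84683170, plus strand: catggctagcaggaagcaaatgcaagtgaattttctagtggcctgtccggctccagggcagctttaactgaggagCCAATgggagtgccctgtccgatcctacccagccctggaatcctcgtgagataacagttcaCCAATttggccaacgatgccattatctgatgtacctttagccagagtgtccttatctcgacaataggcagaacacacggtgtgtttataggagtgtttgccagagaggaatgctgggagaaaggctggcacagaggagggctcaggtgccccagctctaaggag

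The CCAAT motif stood in 22 of the 31 windows of these 24 genes (71.0%), against 37.4% of 32851 windows of all genes. Among the synthesis enzymes it was in 15 of 19 windows. Mvk, whose window is not shown, held 5 matches, and Nsdhl and Hmgcs1 each held 4. Dhcr7 has 3 windows, of which the one with matches is shown. It lies inside the gene (chr7:143823145-143848410). The others, chr7:143822917-143823216 and chr7:143823149-143823448, lie at the start of the gene and hold no match. Abcg8 has another window, chr17:84676052-84676351, which holds no match and is not shown. TCACNCCAC was found in 1 of 31 windows, that of Hmgcs1, and in 1.24% of all windows. In the windows shown, Abcg5 and Abcg8 point away from each other on chromosome 17, with start sites 110 bases apart. These windows have 209 bases in common, so the ATTGG of Abcg5 and the second CCAAT of Abcg8 are the same letters. These are descriptions of letters and say nothing of which factor was bound.

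Levels over the 45 libraries spanned from a mean of 386 TPM for Fdps to 1.48 TPM for Ggps1. Both enzymes draw on the same branch point: FDPS makes farnesyl diphosphate and GGPS1 extends it to geranylgeranyl diphosphate. Ebp, the sterol isomerase, followed Fdps at 321 TPM, then Sc5d and Tmem97 at 174 and 173 TPM. Squalene epoxidase (Sqle) had a mean of 38.8 TPM and Srebf2 itself 11.8 TPM. Neighbours in this order often lay within each other's spread, as Sc5d and Tmem97 did.

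**Figure D1:**
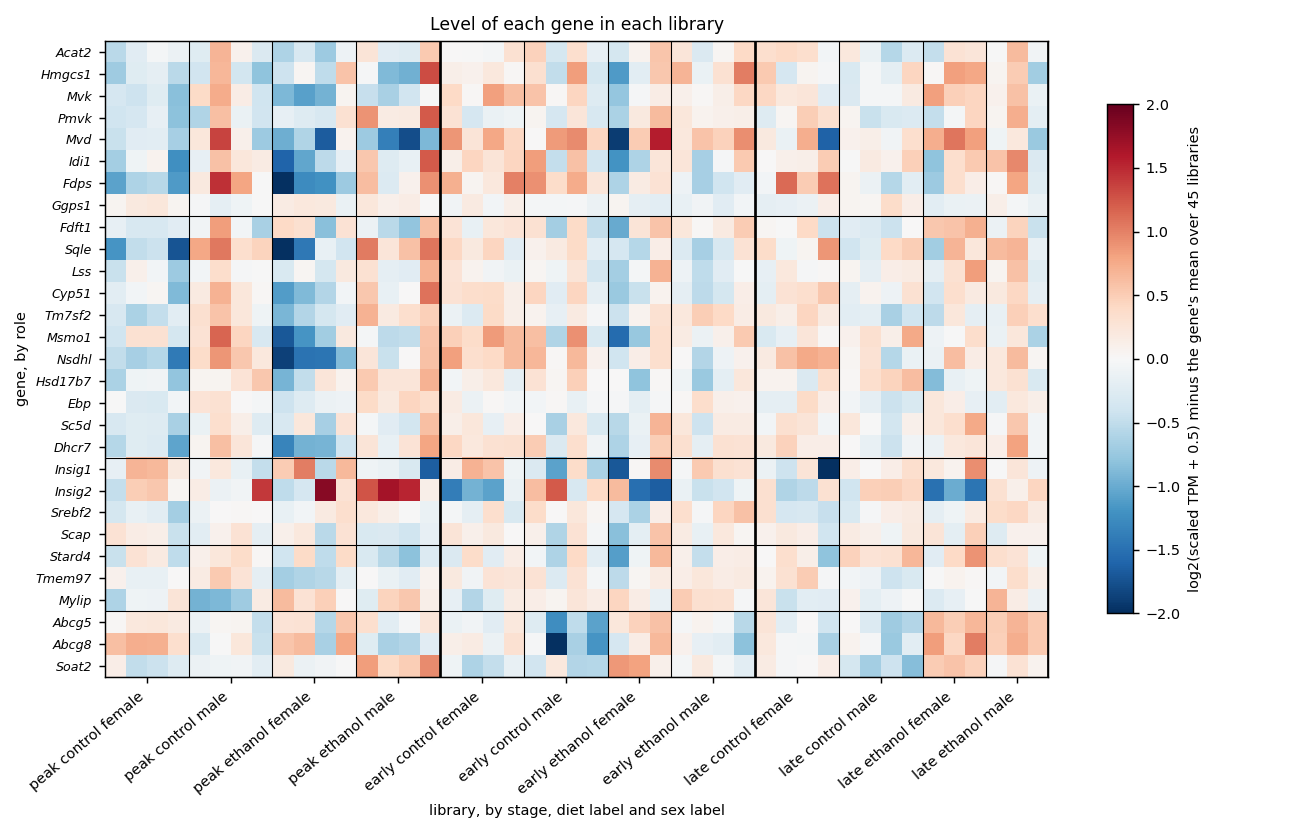
Each cell is log2(TPM + 0.5) after median-of-ratios scaling minus the mean of that gene over 45 libraries, with 29 genes as rows by role and libraries as columns by stage, diet label and sex label. Most enzymes of female-labelled libraries at peak lie below their own mean, and libraries 1 and 3 of the early ethanol female group lie on opposite sides.

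Synthesis genes varied more between libraries of 1 group than most genes did. The median SD within a group was 0.45 on the log2 scale for the 19 enzymes and 0.28 over all genes tested. Mvd, which makes isopentenyl diphosphate, was the most variable at 0.75, with 25.2-fold between its highest and lowest library. Insig1 followed at 0.73 and 14.5-fold, while Ebp and Ggps1 were steady at 0.15 and 0.14. In the early ethanol female group Mvd read 0.699, 7.34 and 17.6 TPM and Insig1 17.7, 79.2 and 168 TPM. Of the 19 enzymes, female 1 of that group had 0 above the gene's median over all libraries and female 3 had 19, or 1 and 16 after scaling.

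Of the comparisons by diet or sex label at a single stage, the sex label at peak gave the most calls as deposited, 12 of 29 genes: Sqle, Fdps and Nsdhl were higher in male-labelled livers within each diet label, and 11 of 19 enzymes were higher after scaling. The all-gene median lay at -0.29 (log2, male-labelled minus female-labelled) as deposited. The 50 most abundant genes held 51.2% to 55.9% of TPM in male-labelled and 42.5% to 50.4% in female-labelled libraries at peak. Differences are given as deposited unless called scaled, which stands for median-of-ratios scaling, where each library is divided by its typical ratio to all libraries. As deposited, limma called these 12 at an adjusted p under 0.05, 6 higher and 6 lower, against 51.0% of all genes (4.26% higher and 46.7% lower). Scaled, it called 14 of 29, 13 higher and 1 lower, against 31.9% of all genes (15.3% higher and 16.6% lower). Of the 19 enzymes, 6 were higher and 1 lower as deposited, with a median difference of 0.21. Scaled, 11 were higher and 0 lower, with a median of 0.51 against 0.00 over all genes, and 18 had a positive value.

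Sqle (chr15:59315077-59331192), the enzyme that adds oxygen to squalene, showed it most plainly. Control female-labelled livers at peak had 14.4, 26.7, 26.8 and 10.02 TPM and ethanol female-labelled livers 9.54, 15.9, 31.3 and 30.4 TPM. Control male-labelled livers had 47.6, 63.4, 41.5 and 42.6 TPM and ethanol male-labelled livers 56.5, 36.7, 41.6 and 65.9 TPM. Every male-labelled library lay above every female-labelled one, whatever the diet label. The difference was 1.35 ± 0.24 (SE, log2; limma adjusted p = 6.8e-05), a 2.54-fold higher level, or 3.20-fold scaled (adjusted p = 6e-06). Without overlap between the sex labels were 3 of 29 genes at peak, namely Fdps and Sqle (higher) and Ggps1 (lower), against 4.05% of all genes.

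Fdps (chr3:89093588-89101959) followed Sqle. Its levels were 153, 239, 240.3 and 151 TPM in control female-labelled and 101, 175, 145 and 231 TPM in ethanol female-labelled livers. They were 307, 811, 548 and 298 TPM in control male-labelled and 405, 247, 284 and 571 TPM in ethanol male-labelled livers. The lowest male-labelled library, at 247 TPM, was just above the highest female-labelled one. The difference was 1.21 ± 0.25 (SE, log2; limma adjusted p = 0.00032) as deposited and 1.55 ± 0.23 (adjusted p = 7.9e-06) scaled.

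Nsdhl (chrX:72918557-72958514), an X-linked sterol dehydrogenase that removes a methyl group, was the third. It read 43.0, 43.1, 43.9 and 23.0 TPM in control female-labelled and 20.4, 28.0, 22.6 and 39.0 TPM in ethanol female-labelled livers. It read 64.6, 102, 86.6 and 65.1 TPM in control male-labelled and 58.0, 41.0, 50.4 and 85.5 TPM in ethanol male-labelled livers. Only ethanol male 2, at 41.0 TPM, fell within the female-labelled range. The difference was 1.07 ± 0.20 (SE, log2; limma adjusted p = 0.00012), or 1.40 scaled (adjusted p = 3.8e-07).

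Further along the sterol route, Dhcr7, the last step in one branch, and the sterol reductase Tm7sf2 were also higher. Dhcr7 read 42.0, 59.9, 56.3 and 30.9 TPM (control) and 31.3, 42.3, 34.0 and 56.6 TPM (ethanol) in female-labelled livers at peak. In male-labelled livers it read 54.1, 86.3, 72.7 and 57.6 TPM (control) and 61.2, 52.4, 62.6 and 102 TPM (ethanol). The ranges met between 52.4 and 59.9 TPM, and the difference was 0.64 ± 0.20 (SE, log2; limma adjusted p = 0.0098), or 0.97 scaled. Tm7sf2 had 47.4 to 71.9 TPM with a median of 57.4 in female-labelled and 62.5 to 96.5 TPM with a median of 78.2 in male-labelled livers, a difference of 0.47 ± 0.15 (SE, log2; limma adjusted p = 0.0088), or 0.81 scaled. Cyp51, the demethylase of lanosterol, had 12.9 to 26.9 TPM in female-labelled and 19.7 to 47.5 TPM in male-labelled livers. Its difference of 0.47 (limma adjusted p = 0.049) lost its call when any one of 28 libraries was left out (adjusted p from 0.05 to 0.15), and it stood at 0.80 (adjusted p = 0.0009) scaled.

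**Figure D2:**
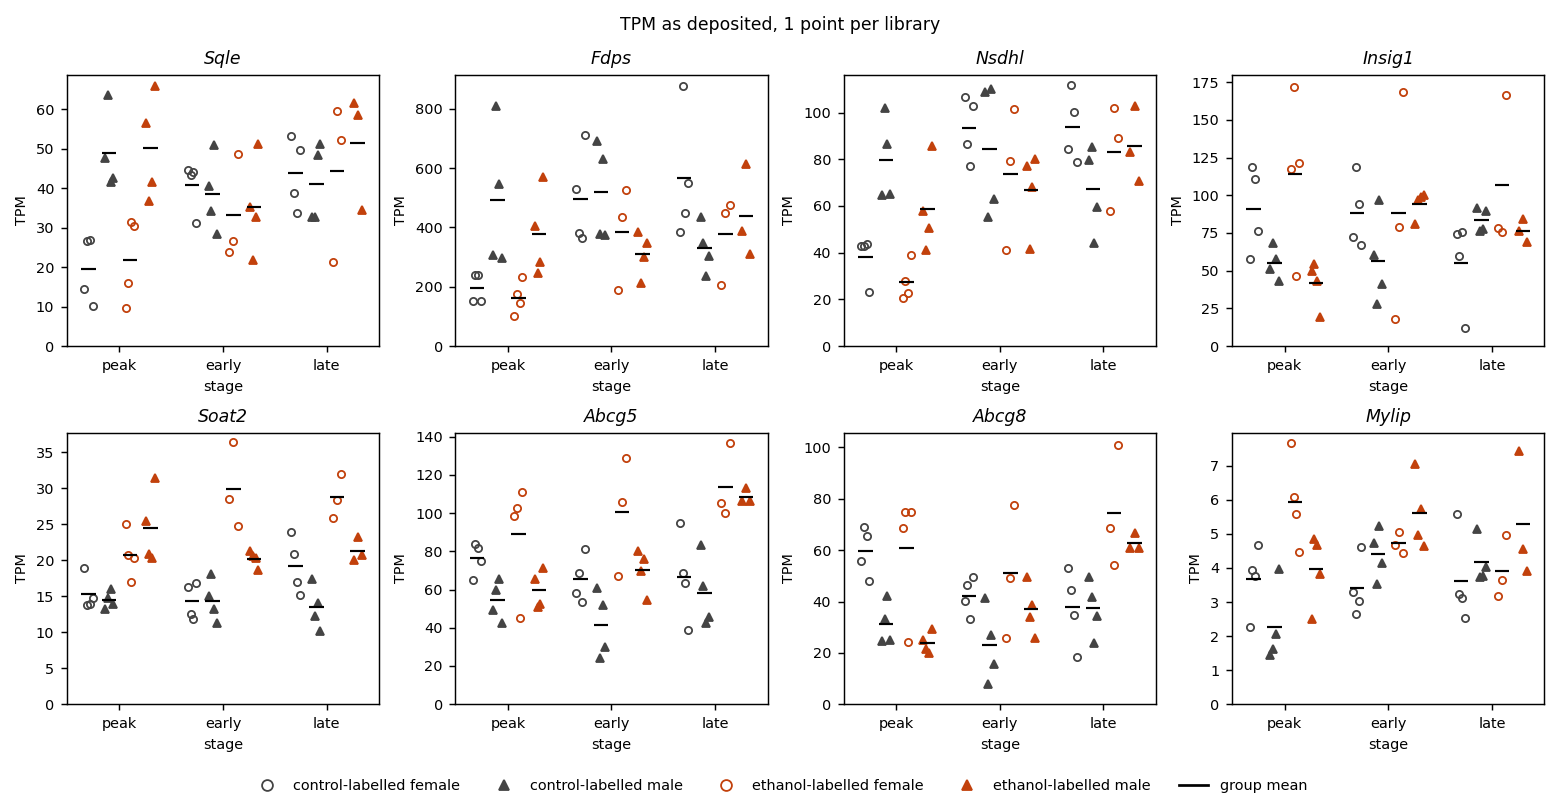
TPM in each library for 8 genes, by stage and group: circles are female-labelled, triangles male-labelled, grey is control-labelled, orange ethanol-labelled, and bars are group means. At peak the triangles of Sqle and Fdps lie above all circles, and Soat2 is higher in orange than in grey at each stage.

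Scaling added 5 enzymes to those called higher in male-labelled livers at peak. These were Idi1 (0.93, limma adjusted p = 0.0059), Hsd17b7 (0.67, adjusted p = 0.0024), Mvk (0.51, adjusted p = 0.019), Pmvk (0.51, adjusted p = 0.031) and the X-linked Ebp (0.43, adjusted p = 0.0003). As deposited they stood at 0.60, 0.34, 0.21, 0.18 and 0.10, above the all-gene median of -0.29. It also added Tmem97, a sterol-binding membrane protein, and the esterifying enzyme Soat2, at 0.34 and 0.41, which had stood at 0.00 and 0.08 as deposited. Not called under either scaling were Hmgcs1, Lss, Fdft1, Sc5d, Acat2, Msmo1 and Mvd, with scaled values from 0.01 for Fdft1 to 0.58 for Msmo1.

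Among the genes of sensing, uptake and export, Tmem97 and Soat2 were called higher only when scaled, and the others called by sex label at peak were lower as deposited. Insig1 (chr5:28071363-28078662), whose protein holds SREBP2 back and which is itself a SREBP2 target, was the opposite as deposited. It read 57.8, 119, 111 and 76.5 TPM (control) and 117, 172, 46.6 and 121 TPM (ethanol) in female-labelled livers, against 51.4, 68.3, 57.4 and 43.1 TPM (control) and 49.7, 54.6, 43.4 and 19.2 TPM (ethanol) in male-labelled livers. Most female-labelled libraries were above all male-labelled ones, the exceptions being control female 1 and ethanol female 3. The difference was -1.04 ± 0.35 (SE, log2; limma adjusted p = 0.013) as deposited and -0.71 (adjusted p = 0.066) scaled. Srebf2 was not called by sex label at any stage.

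Abcg8 (chr17:84676302-84700333) was the 1 gene called lower in male-labelled livers at peak under both scalings. It read 55.8, 69.1, 65.7 and 48.0 TPM (control) and 68.8, 74.8, 24.2 and 74.9 TPM (ethanol) in female-labelled livers. In male-labelled livers it read 24.8, 33.1, 42.1 and 24.99 TPM (control) and 25.1, 21.5, 20.1 and 29.2 TPM (ethanol). Apart from ethanol female 3, every female-labelled library was above every male-labelled one. The difference was -1.07 ± 0.26 (SE, log2; limma adjusted p = 0.0013) as deposited and -0.74 (adjusted p = 0.0063) scaled. Its partner Abcg5 was at -0.50 (adjusted p = 0.028) and Mylip, which marks lipoprotein receptors for degradation, at -0.59 (adjusted p = 0.0047). Scap was at -0.49 (adjusted p = 0.046) and Ggps1 at -0.35 (adjusted p = 0.00069). None of these 4 kept its call scaled, where they stood at -0.17, -0.30, -0.16 and -0.10. Leaving out 1 library ended the call as deposited for Scap in 12 cases and for Abcg5 in 6.

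**Figure D3:**
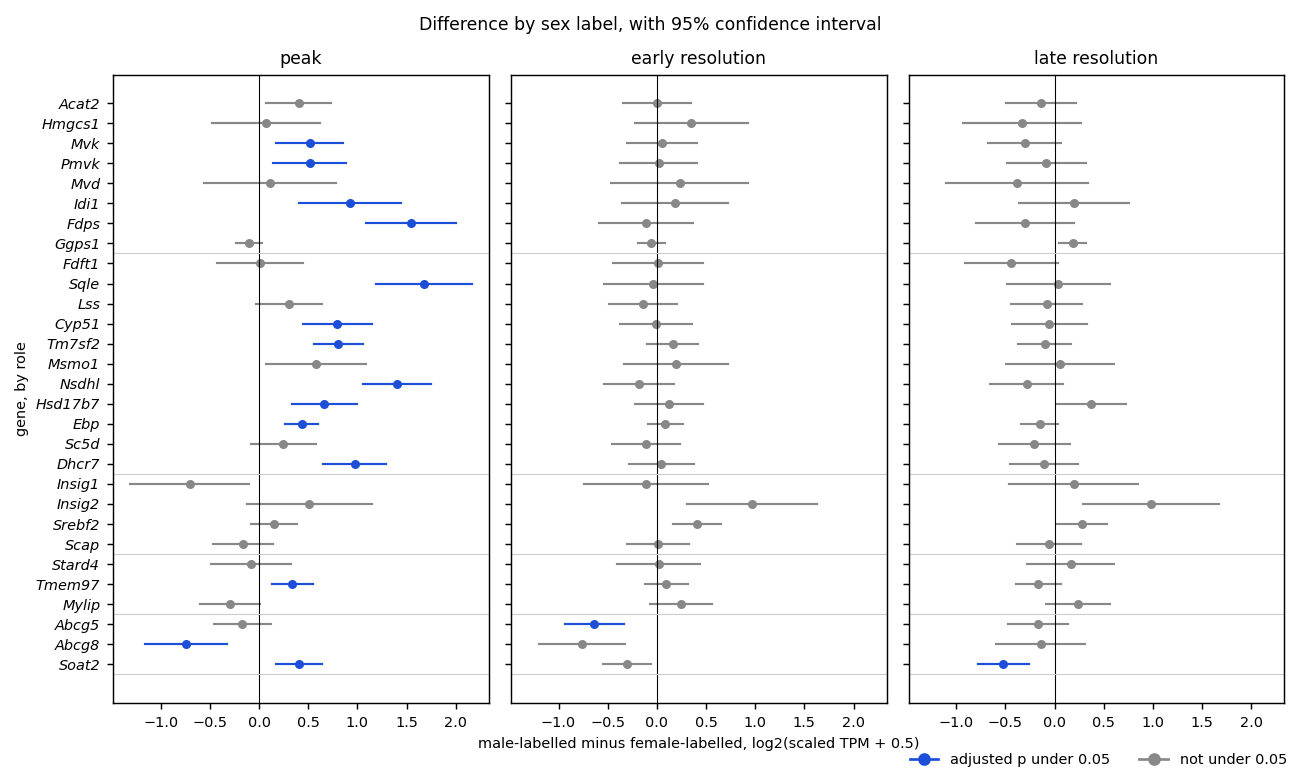
Male-labelled minus female-labelled difference (log2, scaled) with its 95% interval for 29 genes at peak, early and late resolution, where blue marks an adjusted p under 0.05. At peak Sqle and Fdps lie farthest to the right, at 1.68 and 1.55, and at the later stages 1 gene per stage is blue.

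The excess of these enzymes was present within each diet label at peak. Within the 8 control-labelled livers, limma called 3 of 29 genes as deposited, against 2.9% of all genes: Sqle at 1.39 (adjusted p = 0.017), Nsdhl at 1.07 (adjusted p = 0.03) and Fdps at 1.23 (adjusted p = 0.048). Scaled they stood at 1.61, 1.29 and 1.45, and 4 of 29 genes were called, against 3.03%. Leaving out 1 library could end each of these calls. Fdps lost its call with any one of 26 libraries. Many of these lay outside the 8 compared and left its difference at 1.23, with an adjusted p near the threshold. Others were among the 8 compared. With those left out the difference ranged from 0.95 without control male 2 (adjusted p = 0.16) to 1.41 without control male 1 (adjusted p = 0.058). Nsdhl lost its call with any one of 5 libraries and Sqle with any one of 3. Those 3 for Sqle were control female 4 (1.12, adjusted p = 0.089), control male 1 (1.40, adjusted p = 0.053) and control male 2 (1.26, adjusted p = 0.06). Within the 8 ethanol-labelled livers 10 of 29 genes were called as deposited, 5 higher and 5 lower, against 49.4% of all genes, and 13 scaled, 12 higher and 1 lower, against 31.6%. Sqle was at 1.30 (adjusted p = 0.0027), Fdps at 1.19 (adjusted p = 0.007) and Nsdhl at 1.07 (adjusted p = 0.0029) there, or at 1.74, 1.65 and 1.52 scaled. The 8 libraries within each diet label carried the same sex-chromosome transcripts, so a difference by sex label at peak does not coincide with Xist or Eif2s3y. The interaction of diet and sex label was called by limma for 0 genes of the set at peak (against 0.16% of all genes), early (0.00889%) and late resolution (0.0445%), with 0, 3 and 1 at an unadjusted p under 0.05.

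The endothelial markers moved with the sex label at peak as deposited. Of Stab2, Lyve1, Clec4g, Pecam1 and Cdh5, 4 of 5 were lower in male-labelled livers, against 46.7% of all genes, and 1 of 5 scaled, against 16.6%, and their sum was 44.9 to 156 TPM against 81.1 to 226 TPM in female-labelled livers. Their part in the differences of the set was not tested. In bulk liver, fewer cells of a type and less RNA per cell cannot be told apart.

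In the resolution stages no synthesis enzyme was called by sex label averaged over the diet labels, under either scaling. Within the control-labelled livers of late resolution Tm7sf2 (-0.59, limma adjusted p = 0.047) and Soat2 (-0.64, adjusted p = 0.026) were lower in male-labelled livers when scaled, 2 of 29 genes against 3.82% of all genes. At early resolution limma called 0 of 29 genes as deposited (5 at an unadjusted p under 0.05), against 0.596% of all genes, and at late resolution 1, against 3.25%. That gene was Soat2, at -0.46 ± 0.13 (SE, log2; limma adjusted p = 0.037), a call that leaving out any one of 10 libraries ended (adjusted p from 0.053 to 0.1). Scaled, Abcg5 was lower in male-labelled livers at early resolution (-0.64, adjusted p = 0.018), the 1 gene called there, against 1.8% of all genes, and Soat2 was the 1 gene called at late resolution, against 9.53%. The difference of the differences was tested directly. From peak to early resolution 6 of 29 genes changed their sex label difference as deposited, against 31.9% of all genes, and from peak to late resolution 8, against 36.5%. Those shares are below the background, but scaled the counts were 8 of 29, against 16.6% of all genes, and 11 of 29, against 20.6%. Of these, 8 and 10 had a negative change of the male-labelled minus female-labelled difference, against 7.38% and 8.83% of all genes. A negative change can come from lower male-labelled or from higher female-labelled levels. From early to late resolution the count was 0, against 0.0%.

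Sqle changed its sex label difference by -1.35 (limma adjusted p = 0.0052) from peak to early and by -1.25 (adjusted p = 0.0076) from peak to late resolution, or by -1.71 and -1.64 scaled. Fdps changed by -1.29 (adjusted p = 0.0093) and -1.45 (adjusted p = 0.0041), and Nsdhl by -1.22 (adjusted p = 0.0031) and -1.29 (adjusted p = 0.0022), and scaled their changes were -1.66 and -1.85, and -1.59 and -1.69. No single library ended any of these 6 calls. In the control-labelled group means of Sqle and Fdps, female-labelled livers were low at peak and higher afterwards. At late resolution their Fdps mean was above the male-labelled one. Mean Sqle in control female-labelled livers was 19.48 ± 8.58 TPM (SD, n = 4) at peak, 40.7 ± 6.44 at early and 43.8 ± 9.09 at late resolution. In control male-labelled livers it was 48.8 ± 10.1, 38.5 ± 9.60 and 41.1 ± 9.91 TPM (SD, n = 4 each). Fdps in control female-labelled livers went from 196 ± 50.6 TPM at peak to 496 ± 162 and 565 ± 218 TPM (SD, n = 4 each). In control male-labelled livers Fdps was at 491 ± 243, 518 ± 166 and 331 ± 82.9 TPM (SD, n = 4 each). In ethanol-labelled livers the male-labelled Sqle level was also lower after peak. Scaled, it was 42.5 to 75.2 TPM at peak, 22.5 to 43.5 at early and 32.1 to 57.3 at late resolution. The female-labelled ranges there were 8.06 to 32.1, 23.8 to 39.0 and 21.8 to 57.8 TPM.

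**Figure D4:**
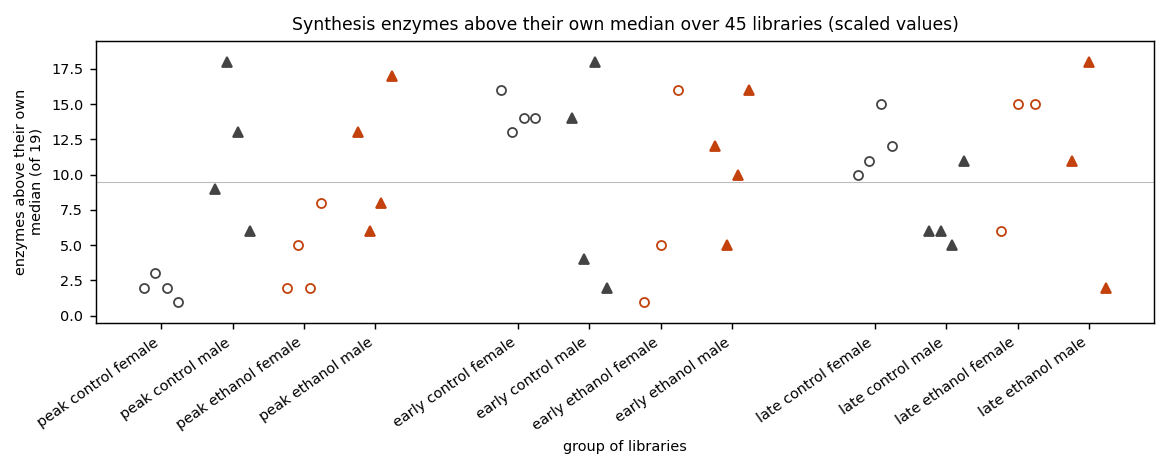
Number of the 19 synthesis enzymes above the gene's own median over 45 libraries, after scaling, with 1 point per library and groups on the horizontal axis. At peak the female-labelled libraries had 1 to 8 enzymes above their median and the male-labelled 6 to 18.

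Counted per library and scaled, female-labelled livers at peak had 1 to 8 of the 19 enzymes above the gene's own median (median 2.0) and male-labelled livers 6 to 18 (median 11.0). As deposited the ranges overlapped widely, at 1 to 11 and 1 to 17. At early resolution the scaled medians were 14.0 in female-labelled and 11.0 in male-labelled livers, and at late resolution 12 and 6.0. These counts describe the libraries, since the enzymes of a library are not independent.

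By diet label, scaling added calls, most of them of synthesis enzymes. As deposited, 6 of the 8 calls over the 3 stages were of export and esterification genes and 1 was of a synthesis enzyme. Scaled, 6 of 15 were of export and esterification genes and 7 of synthesis enzymes. At peak limma called 3 of 29 genes as deposited, all higher in ethanol-labelled livers, against 27.1% of all genes, a share below the background. They were Soat2, Mylip and Pmvk. At early resolution it called 2, Soat2 and Abcg5, against 16.7%. At late resolution it called 3, Soat2, Abcg5 and Abcg8, against 12.8%. All of these were also called scaled.

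Soat2 (chr15:102150526-102163469), the enzyme that joins cholesterol to a fatty acid for storage, was higher in ethanol-labelled livers at each stage. At peak it read 18.96, 13.8, 13.9 and 14.7 TPM (female) and 13.3, 14.8, 16.0 and 13.9 TPM (male) in control-labelled livers, against 25.0, 20.7, 17.0 and 20.3 TPM (female) and 25.4, 20.8, 20.3 and 31.5 TPM (male) in ethanol-labelled livers. The 2 sets met only through control female 1 and ethanol female 3. The difference was 0.57 ± 0.12 (SE, log2; limma adjusted p = 0.00033), with 8 of 8 ethanol-labelled libraries above the control mean of their sex label. At early resolution control-labelled livers lay at 11.3 to 18.2 TPM and ethanol-labelled ones at 18.7 to 36.4 TPM, with no overlap, and the difference was 0.76 ± 0.12 (SE; adjusted p = 1.9e-05). At late resolution the ranges were 10.1 to 23.9 and 20.0 to 31.9 TPM overlapping between 20.0 and 23.9 TPM, and the difference was 0.63 ± 0.13 (SE; adjusted p = 0.00072). Scaled values were 0.52, 0.61 and 0.56, and no library left out ended any of the 3 calls.

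Abcg5 (chr17:84658234-84683011) and Abcg8, whose shared promoter is printed above, were both called higher in ethanol-labelled livers at late resolution. At early resolution Abcg5 alone was called, and at peak neither was. At late resolution Abcg5 read 94.98, 68.4, 63.3 and 38.7 TPM (female) and 83.4, 61.7, 42.6 and 45.8 TPM (male) in control-labelled livers. In ethanol-labelled livers it read 105, 99.9 and 136 TPM (female) and 107, 113 and 106 TPM (male). Every ethanol-labelled library was above every control-labelled one, and the difference was 0.89 ± 0.21 (SE, log2; limma adjusted p = 0.0033). The highest control-labelled value, 94.98 TPM, was that of late control female 1, the only control-labelled library high for Xist. That library also held the highest control-labelled values of Abcg8 and Soat2 at late resolution. Scaled, they stood at 45.8 and 20.6 TPM. The next highest were 41.2 TPM in late control male 1 and 20.3 TPM in late control female 4. Any link to Xist was not tested. Abcg8 ranged from 18.6 to 52.9 TPM with a median of 38.3 in control-labelled and from 54.2 to 101 TPM with a median of 63.8 in ethanol-labelled livers at late resolution, again without overlap. Its difference was 0.91 ± 0.28 (SE; limma adjusted p = 0.028), but leaving out any one of 5 libraries ended the call. These were late control female 4 (0.76, adjusted p = 0.083), late ethanol female 3 (0.79, adjusted p = 0.065), late control male 3 (0.81, adjusted p = 0.066), late ethanol male 1 (0.92, adjusted p = 0.052) and late ethanol male 2 (0.89, adjusted p = 0.056).

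At early resolution Abcg5 read 58.2, 68.8, 53.4 and 81.0 TPM (female) and 60.8, 24.3, 51.9 and 29.9 TPM (male) in control-labelled livers. In ethanol-labelled livers it read 67.2, 106 and 129 TPM (female) and 80.3, 69.7, 75.9 and 54.6 TPM (male). The sets overlapped, and the difference of 0.71 ± 0.20 (SE, log2; limma adjusted p = 0.012) fell to 0.61 (adjusted p = 0.053) without early ethanol female 3. Abcg8 differed by 0.51 (adjusted p = 0.2) at early resolution, or 0.36 (adjusted p = 0.26) scaled. At peak Abcg5 differed by 0.15 (adjusted p = 0.60) and Abcg8 by -0.22 (adjusted p = 0.56). Whether the diet difference changed between stages was tested: as deposited limma called 0 of 29 genes from peak to early (1 at an unadjusted p under 0.05, against 0.0% of all genes called), 0 from peak to late (6, against 3.98%) and 0 from early to late resolution (0, against 0.0%). Scaled, 3 genes were called from peak to late resolution, Mvk at 0.75, Abcg5 at 0.73 and Abcg8 at 1.13, against 12.2% of all genes. Without overlap between the diet labels were 0 genes of the set at peak (against 3.31% of all genes), 1 at early (2.73%) and 2 at late resolution (0.738%).

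Mylip (chr13:45389742-45412022) and Pmvk were the other genes higher in ethanol-labelled livers at peak. Mylip read 2.27, 3.95, 3.78 and 4.69 TPM (female) and 1.44, 1.63, 2.07 and 3.96 TPM (male) in control-labelled livers, against 7.66, 6.07, 5.58 and 4.46 TPM (female) and 2.50, 4.85, 4.66 and 3.82 TPM (male) in ethanol-labelled livers. The ranges overlapped, but within each sex label every ethanol-labelled library was above the control mean, and the difference was 0.69 ± 0.17 (SE, log2; limma adjusted p = 0.0023). Pmvk (chr3:89454541-89469013), the enzyme that adds the second phosphate to mevalonate, had 33.5 to 84.4 TPM in control-labelled and 51.0 to 135 TPM in ethanol-labelled livers. Its difference of 0.59 ± 0.22 (SE; adjusted p = 0.039) lost its call when any one of 9 libraries was left out (adjusted p from 0.052 to 0.11).

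**Figure D5:**
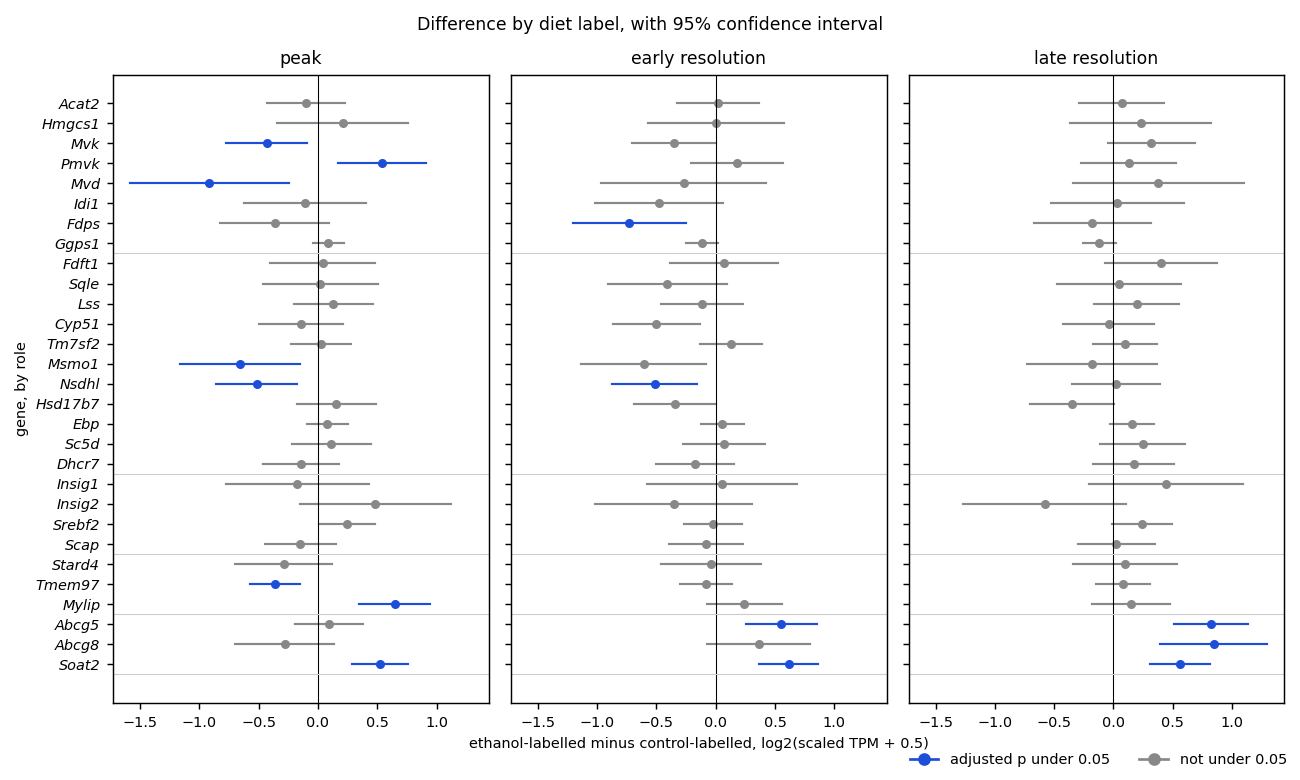
Ethanol-labelled minus control-labelled difference (log2, scaled) with its 95% interval for 29 genes at peak, early and late resolution, where blue marks an adjusted p under 0.05. Soat2 is blue and to the right at each stage, and Abcg5 and Abcg8 are farthest to the right at late resolution, at 0.82 and 0.85.

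Scaled, 8 of 29 genes were called by diet label at peak, 3 higher and 5 lower, against 35.6% of all genes (17.1% higher and 18.5% lower), so the share lower was near the background. The 5 were Mvd (-0.92, limma adjusted p = 0.028), Msmo1 (-0.66, adjusted p = 0.038), Nsdhl (-0.52, adjusted p = 0.016), Mvk (-0.43, adjusted p = 0.044) and Tmem97 (-0.36, adjusted p = 0.0069). Of these, 4 are among the 19 enzymes, whose median difference was 0.02 against 0.00 over all genes, so the enzymes did not share a direction. Tmem97 read 129 to 206 TPM with a median of 162 in control-labelled and 111 to 164 TPM with a median of 131 in ethanol-labelled livers. At early resolution the all-gene median was 0.13 and scaling called 4 of 29 genes, against 15.9%, with Fdps at -0.73 (adjusted p = 0.03) and Nsdhl at -0.52 (adjusted p = 0.041) below. At late resolution it called the same number as deposited, 3, against 20.0%. As deposited, limma called 1 of the 19 enzymes at peak and 0 at the later stages, where 2 and 1 had an unadjusted p under 0.05.

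Each sex label was also tested alone, with smaller groups. In female-labelled livers the diet label separated 0 of 29 genes at peak (3 at an unadjusted p under 0.05, against 6.65% of all genes called), Soat2 at early resolution (1.03, limma adjusted p = 0.00017, against 3.92%) and 0 at late resolution (against 2.46%). In male-labelled livers it separated 3 at peak (against 23.4%), with Mvd at -1.44 (adjusted p = 0.035) beside Mylip and Soat2 at 0.73 and 0.72. At early resolution Ebp (0.39, but 0.20 with an adjusted p of 0.34 scaled) and Abcg5 (0.83) were called in male-labelled livers (against 8.39%), and at late resolution Abcg5 (0.94) and Soat2 (0.67) (against 6.44%). The absence of an interaction call for these genes means that a difference between the sex labels was not shown.

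Several cell type markers moved with the diet label. Of all genes, 27.1% were called by diet label at peak, 16.7% at early and 12.8% at late resolution, in either direction. At peak endothelial markers were higher with ethanol in 5 of 5 genes, and their sum was 71.6 to 226 TPM against 44.9 to 170 TPM in control-labelled livers. Stellate cell markers (Lrat, Reln, Dcn, Colec11 and Ecm1) were higher in 4 of 5, summing to 191 to 374 TPM against 78.9 to 292 TPM. At early resolution stellate markers were higher in 4 of 5, at 286 to 439 TPM against 128 to 257 TPM, and Kupffer cell markers in 4 of 5 (2 scaled), at 251 to 424 TPM against 93.1 to 322 TPM. At late resolution 4 of 4 tested T and B cell markers were higher, from 6.49 to 39.2 TPM against 1.48 to 6.48 TPM. The 39.2 TPM came from a male-labelled liver, in a group with a median of 6.59 TPM, and the female-labelled ethanol group reached 10.9 TPM. Kupffer cell and stellate markers were each higher in 2 of 5 at late resolution (3 and 2 scaled). Hepatocyte markers at late resolution summed to 176700 to 204900 TPM in ethanol-labelled and to 98360 to 180800 TPM in control-labelled livers. Of the 6, 1 was called higher there (1 higher and 1 lower scaled), and 2 were called higher at early resolution (1 scaled). Of the hepatocyte markers at peak 1 of 6 was higher and 1 lower, of the biliary markers 2 of 3 tested were higher, and of the adipocyte markers 1 of 2 tested was lower. At early resolution 1 of 2 adipocyte markers was lower as well. Their part in the changes of Soat2, Abcg5 and Abcg8 was not tested.

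Within the ethanol-labelled livers the passage from peak to resolution was compared directly. From peak to early resolution limma called 5 of 29 genes (17.2%), against 26.5% of all genes. From peak to late resolution it called 8 (27.6%), against 22.0%. The share of the set was thus below the background at the first step and not far above it at the second. Scaled, 6 and 9 were called, with 1 synthesis enzyme lower at each step. The scaled share of all genes is not given here. Mvk rose by 0.69 (adjusted p = 0.013) and by 1.08 (adjusted p = 0.00074), from a median of 3.26 TPM at peak to 7.24 and 8.87 TPM. Mvd rose by 1.46 (adjusted p = 0.0048) and 1.45 (adjusted p = 0.007), and Nsdhl by 0.78 (adjusted p = 0.0068) and 1.08 (adjusted p = 0.00076). Tmem97 rose by 0.51 and 0.54 (adjusted p = 0.015 at both). Insig2, the second INSIG gene, fell by 1.10 (adjusted p = 0.0074) and by 1.08 (adjusted p = 0.011). It ranged from 62.1 to 259 TPM at peak, 28.99 to 97.2 TPM at early and 25.6 to 107 TPM at late resolution, so single libraries of the stages overlapped. Scaled, the early and late changes were 0.52 and 0.92 for Mvk, 1.29 and 1.32 for Mvd, 0.59 and 0.91 for Nsdhl, 0.32 and 0.37 for Tmem97, and -1.28 and -1.25 for Insig2, and no single library left out ended the calls of Mvd, Nsdhl and Insig2.

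By late resolution Dhcr7 (0.67, limma adjusted p = 0.025), Abcg5 (0.64, adjusted p = 0.023) and Abcg8 (0.88, adjusted p = 0.022) had also risen in ethanol-labelled livers, with scaled values of 0.50, 0.47 and 0.72. The calls of Abcg5 and Abcg8 ended without peak ethanol female 3 or late ethanol female 3, that of Dhcr7 without any one of 4 libraries, and those of Mvk and Tmem97 at early resolution without early ethanol female 2 or 3. In control-labelled livers limma called 0 of 29 genes from peak to early resolution (7 at an unadjusted p under 0.05, against 0.729% of all genes called) and 0 from peak to late (4, against 0.676%). There all 19 enzymes had a positive difference in both comparisons as deposited, with medians of 0.28 and 0.32 against 0.07 and 0.14 over all genes. Scaled, 17 were positive in both, with medians of 0.20 and 0.17. The change in ethanol-labelled against that in control-labelled livers is the stage change of the diet difference given above.

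Beyond the set, 36 genes of neighbouring pathways were listed, of which 34 were tested. By diet label as deposited, 8 were higher and 2 lower at peak, 5 higher at early and 7 higher at late resolution, against 27.1%, 16.7% and 12.8% of all genes in either direction. Scaled, the counts were 8 higher and 2 lower, 2 higher, and 6 higher and 3 lower. These were 29.4%, 5.88% and 26.5% of the 34 genes, against 35.6%, 15.9% and 20.0% of all genes. By sex label at peak 3 were higher and 16 lower as deposited, against 4.26% and 46.7% of all genes, and 11 higher and 5 lower scaled, against 15.3% and 16.6%. Hepatic lipase (Lipc), which hydrolyses lipoprotein lipids, was higher in ethanol-labelled livers at all stages, by 0.78 (limma adjusted p = 1.6e-05), 0.98 (adjusted p = 9e-07) and 0.75 (adjusted p = 0.0002), or 0.72, 0.83 and 0.69 scaled. At peak its mean was 195.1 ± 51.7 TPM in control and 364 ± 67.1 TPM in ethanol female-labelled livers, and 141 ± 6.99 and 219.5 ± 18.7 TPM in male-labelled livers (SD, n = 4 each). Lcat, which esterifies plasma cholesterol, was higher by 0.52, 0.43 and 0.47, with a scaled value of 0.27 (adjusted p = 0.059) at early resolution, and Npc2, a lysosomal sterol carrier, by 0.50, 0.63 and 0.60, where the call at late resolution was lost with the stage's own libraries (adjusted p = 0.056) and with the replicate block (adjusted p = 0.069).

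Of the 8 LXR and oxysterol genes tested, 3 were higher and 2 lower at peak. Abca1, the cholesterol efflux pump, was higher by 0.98 (limma adjusted p = 0.0017), while the bile acid enzymes Hsd3b7 and Cyp27a1 differed by -0.62 and -0.42, with scaled values of 0.92, -0.68 and -0.48 for the 3 genes. Nr1h2, which encodes LXR beta, was higher by 0.43, 0.39 and 0.41 at the 3 stages, with calls at early and late resolution that leaving out any one of 3 (early ethanol female 2 or 3, or early control male 2) and of 5 libraries ended, and with 0.25 (adjusted p = 0.064) scaled at early resolution. Among 8 genes of SREBP activation and INSIG degradation limma called 0 at peak (0 at an unadjusted p under 0.05), and among 10 of the non-sterol isoprenoid branch 1, Pdss1 at 0.28 (adjusted p = 0.034), which was not called scaled (0.25, adjusted p = 0.065). Srebf1, the fatty acid counterpart of Srebf2, was called at late resolution (0.89, adjusted p = 0.046), a call that any one of 16 libraries ended.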

How the data were processed

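RNA from whole liver of 45 mouse libraries was isolated on spin columns and made into stranded mRNA libraries, per the labels' protocols. Reads were processed on genome build mm10, per the submitters' processing notes; no aligner, counter or annotation is given in the sources used here. Deposited by the authors was 1 table of TPM with 24972 entries: each library sums to between 999999 and 1000001, and a gene's smallest value falls with its exon length (rho = -0.64 over 4248 genes), while its name speaks of normalized counts. Depth and counting precision are therefore unknown. The 26 entries whose names had become dates (0.044% of TPM) were left out. Coordinates of genes come from GENCODE M21.

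The scale was log2(TPM + 0.5), so folds of low genes are understated. Genes averaging at least 0.5 TPM, 11244 in all, were tested with limma 3.58.1 in R 4.3.3: a mean for each of the 12 groups, a variance trend, 33 residual and 3.8 prior degrees of freedom, and Benjamini-Hochberg adjustment over all genes tested. Genes count as called when the adjusted p is under 0.05. Diet differences are ethanol-labelled minus control-labelled, averaged over sex labels, and sex label differences are male-labelled minus female-labelled, averaged over diet labels. Scaled values were obtained by median-of-ratios scaling before that test (factors from 0.749 to 1.25). The fit was tested on simulated data. Python 3.11.15 with pandas 2.3.3, numpy 2.4.6, matplotlib 3.10.9 and scipy 1.17.1 made tables and figures.

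The genes, lists and comparisons were chosen with earlier results of these data known. All 29 genes could be named, with values per library for those called by diet or sex label at a stage. Of each neighbouring list (SREBP activation, isoprenoid branch, LXR, ester and lipoprotein handling) at most the 4 called genes with the smallest adjusted p could be named. Marker lists were hepatocyte, Kupffer cell, endothelial, stellate, biliary, adipocyte, and T and B cell. Alternatives tried were pseudocounts of 0.1 and 2, a minimum mean of 5 TPM, no filter, median-of-ratios scaling, quantile normalization, array weights, no variance trend, only the libraries of a stage, the replicate number as a block (also within peak female-labelled livers, chosen after seeing the data), and each library left out in turn. The most alike libraries, peak control female 2 and 3, still differed (median difference of 0.0786 on the log2 scale, against 0.207 over 63 pairs) and were kept as 2.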

Additional observations from a re-analysis of the deposited data

Results flagged for a closer look

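In 126 groups of 4 libraries, 6 held a library far from the others, which is about the 1 in 20 that chance gives. The distant values were Pmvk at 81.8 TPM in late control male 1 (others 51.9 to 54.7), Sqle at 31.1 TPM in early control female 4 (others 43.3 to 44.6), and Nsdhl at 23.0 TPM in peak control female 4 (others 43.0 to 43.9). The other 3 were Dhcr7 at 57.4 TPM in early ethanol male 2 (others 94.7 to 100.2), Scap at 11.1 TPM in peak control female 4 (others 17.4 to 18.6) and Abcg8 at 24.2 TPM in peak ethanol female 3 (others 68.8 to 74.9).

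The male-labelled minus female-labelled difference changed between stages, by limma's test of the change itself, for 9 genes. From peak to early resolution the changes were -1.29 for Fdps, -1.35 for Sqle, -1.22 for Nsdhl, 0.32 for Ggps1, 0.61 for Srebf2 and 0.87 for Mylip (log2, as deposited, all-gene median 0.32). From peak to late resolution they were -1.45 for Fdps, -1.25 for Sqle, -1.29 for Nsdhl, -0.54 for Soat2, 0.58 for Ggps1, 0.88 for Mylip, 0.99 for Abcg8 and 1.29 for Insig1 (all-gene median 0.35). Scaled, Ggps1 (0.04), Srebf2 (0.25) and Mylip (0.54) lost their calls at early resolution and Mylip (0.54), Abcg8 (0.60) and Insig1 (0.90) at late resolution, while the others kept theirs. Leaving out any one of 8 libraries ended the call of Ggps1 and any one of 13 that of Srebf2 at early resolution, early ethanol female 1 among both. Any one of 18 did so for Insig1 and any one of 18 for Abcg8 at late resolution.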

How the results depend on the processing

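Depth is not known from TPM, so low genes such as Ggps1 and Mvd carry an unknown counting error. Outside single libraries left out, 860 values kept their direction and side of the threshold, 49 gained a call, 59 lost one and 3 changed sign; array weights stopped before they converged. Genes called by diet label at peak (3) became 8 with median-of-ratios scaling, 8 with quantile normalization, 9 with array weights and 6 with the stage's own libraries, and at early resolution (2) 4, 4 and 8 with the first 3. By sex label they became 1, 1 and 5 at early resolution (0), and 2 with quantile normalization, 2 with array weights and 0 with the replicate block at late resolution (1). The interaction (0) became 2 with array weights, the diet change between stages (0) 3, 3 and 7 with the first 3 and 1 with the stages' own libraries, the sex label change (9) 14, the within-label count (15) 24 and the between-stage count (8) 14 with array weights. Outside median-of-ratios scaling, the share of all genes called is not given here for these counts.

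With 1 library left out the counts ranged from 2 to 6 by diet label at peak (6 without peak ethanol female 4), 1 to 5 at early resolution (1 without early ethanol female 3 and 5 without female 1) and 2 to 4 at late resolution. By sex label they were 9 to 12, 0 to 1 (1 without early ethanol female 1 or 3) and 0 to 3, where 20 libraries moved the count and 3 came without late ethanol female 3. The interaction gave 0 to 0, the diet change 0 to 1 (1 without peak control male 4 or early ethanol female 1), the sex label change 6 to 12, the within-label count 9 to 17 (9 without peak ethanol female 2) and the between-stage count 5 to 16 (5 without peak ethanol female 3 or late ethanol female 3, and 16 without early ethanol female 1). The sign changed for Pmvk by sex label at peak with array weights (-0.07), for Ggps1 in the sex label change from peak to early resolution with quantile normalization (-0.031), and for Tmem97 by sex label at peak with array weights (-0.022). With 1 library left out Tmem97 ranged from -0.049 to 0.062 and changed sign without peak control female 3 (-0.005), peak ethanol female 1 (-0.01), peak ethanol female 3 (-0.037), peak control male 2 (-0.049), peak control male 3 (-0.026) or peak ethanol male 4 (-0.036). The causes were not tested.

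Same-numbered libraries did not deviate together over all groups: r was -0.371 to 0.25 over 21 diet pairs and -0.433 to 0.527 over 22 sex label pairs, and 7 and 6 pairs correlated best with their own number. These included all 4 diet pairs among peak female-labelled livers, with r between 0.109 and 0.222, and 3 of 4 among male-labelled livers of early resolution, with r between 0.151 and 0.25. With the block, added after seeing the data, the diet label still separated 0 of 29 genes in female-labelled livers at peak by limma (3 at an unadjusted p under 0.05). Of all 11244 genes tested, 582 were called there. With the replicate block the counts were 2, 2 and 2 by diet label and 12, 0 and 0 by sex label at the 3 stages, with Pmvk at peak (adjusted p = 0.084), Abcg8 at late resolution (0.75, adjusted p = 0.15) and Soat2 by sex label at late resolution (adjusted p = 0.06) no longer called. Of the members named, Pmvk by diet label at peak also lost its call without a filter (adjusted p = 0.056).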
